A study of Homo sapiens with 2 samples.

Results

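The cytochrome P450 genes analysed here are the 50 genes whose symbols follow the P450 pattern (CYP, a family number, a subfamily letter and a gene number), with the retinoic acid hydroxylases CYP26A1, CYP26B1 and CYP26C1 left out. A gene entered with at least 3 CpGs covered by at least 10 reads in both libraries, which gave 50 of 29046 genes and 3182 of 2523693 CpGs. Of 52 such symbols in the annotation, CYP2A13 had 0 and CYP7A1 had 2 usable CpGs and did not enter. DNA methylation was measured in SH-SY5Y, an established human neuroblastoma cell line of sympathetic neuronal character, by bisulfite sequencing after capture of chosen genomic regions. The control group was SH-SY5Y exposed to DMSO, the solvent, and the treated group was SH-SY5Y exposed to Mdivi-1, a compound applied to inhibit mitochondrial fission. Dose and exposure time are not given in the sources used here. Each group held 1 library, so differences have no replicate check, and a test sets 2 libraries, not the conditions, against each other. Over the P450 CpGs each CpG had 40.0 reads with DMSO and 47.8 with Mdivi-1 on average, close to the 39.7 and 49.1 reads of all CpGs. RNA was not analysed here, so nothing below says which of these genes were expressed.

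P450 enzymes are haem-containing monooxygenases. Most sit in the endoplasmic reticulum and take electrons from P450 reductase (POR), whereas the mitochondrial members take them from ferredoxin. Some clear drugs, smoke constituents and other foreign compounds, chiefly in the liver, and others make or break down steroid hormones, bile acids, cholesterol, vitamin D, retinoids and fatty acids. Many of the human genes lie in tandem clusters of close relatives. Methylation of cytosine in CpG pairs is usually low at CpG islands, the CpG-dense stretches at many promoters, and high in CpG-poor DNA and along transcribed gene bodies.

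The promoters of the P450 genes cover a wide span of CpG density, and 6 are shown. CYP27A1, CYP4F11 and CYP3A7 stand at opposite ends of the family in methylation level, CYP4X1 and CYP2W1 had, with CYP27A1, the largest gains in the Mdivi-1 library among promoters of at least 5 CpGs, and CYP20A1 holds the CpG of smallest p. Each sequence runs 5′ to 3′ from 250 bases before to 50 after a start site in RefSeq (build GRCh38.p14), with every CG in capitals. The table of promoter sequences matched 34 of the 50 genes by symbol, and where a gene had several start sites the sequence with the most CGs was taken. The methylation data use hg19, so single CGs of the sequences were not paired with measured CpGs, and the measured promoter CpGs can lie outside the printed bases.
CYP27A1 (chr2:218781897-218782196, plus strand): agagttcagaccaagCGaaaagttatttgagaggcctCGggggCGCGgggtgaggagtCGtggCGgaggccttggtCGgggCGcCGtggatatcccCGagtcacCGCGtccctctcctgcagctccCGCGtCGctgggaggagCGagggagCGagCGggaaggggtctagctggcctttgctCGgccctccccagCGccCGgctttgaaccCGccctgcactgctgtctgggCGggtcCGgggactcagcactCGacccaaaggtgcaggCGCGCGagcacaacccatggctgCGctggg
CYP20A1 (chr2:203238768-203239067, plus strand): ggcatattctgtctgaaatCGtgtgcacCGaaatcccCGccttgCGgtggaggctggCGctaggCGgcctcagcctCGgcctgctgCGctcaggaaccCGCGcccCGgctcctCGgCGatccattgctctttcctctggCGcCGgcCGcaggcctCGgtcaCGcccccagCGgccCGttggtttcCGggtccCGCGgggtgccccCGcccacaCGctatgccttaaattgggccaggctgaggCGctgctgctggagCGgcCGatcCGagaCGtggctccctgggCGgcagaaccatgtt
CYP4X1 (chr1:47023419-47023718, plus strand): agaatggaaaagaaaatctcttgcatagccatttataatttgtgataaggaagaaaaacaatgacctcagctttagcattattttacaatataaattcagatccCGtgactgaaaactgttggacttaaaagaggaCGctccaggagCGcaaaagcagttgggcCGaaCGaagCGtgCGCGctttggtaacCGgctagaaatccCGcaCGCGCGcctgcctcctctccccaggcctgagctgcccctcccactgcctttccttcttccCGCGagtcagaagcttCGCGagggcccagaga
CYP2W1 (chr7:982931-983230, plus strand): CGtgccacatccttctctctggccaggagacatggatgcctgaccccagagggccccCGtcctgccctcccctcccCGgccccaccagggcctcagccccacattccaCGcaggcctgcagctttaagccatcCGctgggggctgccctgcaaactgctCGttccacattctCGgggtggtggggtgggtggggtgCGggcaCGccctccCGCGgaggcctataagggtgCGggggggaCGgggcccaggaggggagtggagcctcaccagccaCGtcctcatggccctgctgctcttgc
CYP4F11 (chr19:15934818-15935117, minus strand): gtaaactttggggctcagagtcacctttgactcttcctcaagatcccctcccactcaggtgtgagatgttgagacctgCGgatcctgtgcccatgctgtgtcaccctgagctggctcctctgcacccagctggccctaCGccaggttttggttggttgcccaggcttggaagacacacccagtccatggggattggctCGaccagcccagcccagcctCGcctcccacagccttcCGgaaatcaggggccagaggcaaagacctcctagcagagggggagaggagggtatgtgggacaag
CYP3A7 (chr7:99735147-99735446, minus strand): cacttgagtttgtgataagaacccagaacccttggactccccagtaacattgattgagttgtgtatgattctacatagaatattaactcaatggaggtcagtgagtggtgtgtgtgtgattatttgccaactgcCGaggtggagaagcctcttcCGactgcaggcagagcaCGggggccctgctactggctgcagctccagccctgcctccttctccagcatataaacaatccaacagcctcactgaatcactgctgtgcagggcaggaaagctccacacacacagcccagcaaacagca

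The number of CGs did not order these promoters by methylation. CYP27A1 and CYP20A1, with 29 and 31 CGs in 300 bases, had mean promoter levels in the control of 90.1% and 8.79%. CYP4X1, with 17 CGs, stood between them at 41.9%, and CYP2W1, with 14, at 10.5%. CYP4F11 and CYP3A7, with 5 and 3 CGs, were at 1.57% and 0.455%. Among the 30 genes with both a sequence and a promoter level, 8 of the 13 genes with 5 or fewer CGs were under 10%, as were 5 of the 12 with 15 or more CGs. The family was poorer in CGs than genes at large: the median was 5.5 per sequence against 16 over 27305 genes, and 50% of the members had 5 or fewer against 32.5%. The core of the site bound by the aryl hydrocarbon receptor, the sensor that induces the CYP1 genes, is GCGTG. It was found on either strand in 11 of the 34 sequences (32.4%, against 37.8% of all genes). CYP20A1, CYP4X1, CYP2W1 and CYP51A1 had 2 matches each. Of the CYP1 genes, CYP1A1 had 1 match and CYP1A2 had 0, and CYP1B1 was without a sequence. The match is to letters and shows no binding.

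Promoter methylation of the family spread over nearly the full scale, with a gene median somewhat below that of all genes (the plot of promoter levels by gene). In the 46 genes with at least 3 promoter CpGs, meaning CpGs with that gene in the authors' promoter column, the median level was 15.9% with DMSO and 15.2% with Mdivi-1, against 19.97% and 20.2% over 26088 genes. In the control 19 promoters (41.3%, against 35.4% of all genes) were under 10%, 24 lay between 10% and 80%, and 3 were above 80%. Counted by CpG the order was reversed. The 1005 promoter CpGs of the family averaged 26.6% in the control, against 25.2% for all genes, and 56.4% were under 10%, against 62.8%. In single-library levels such as these the error is that of counting reads. It is given first for CpGs counted as independent and then for reads shared by all CpGs of a region, the widest case, and PCR copies are not accounted for in either. An intermediate level can come from a mixture of cells or of alleles, which these means cannot tell apart.

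**Figure D1:**
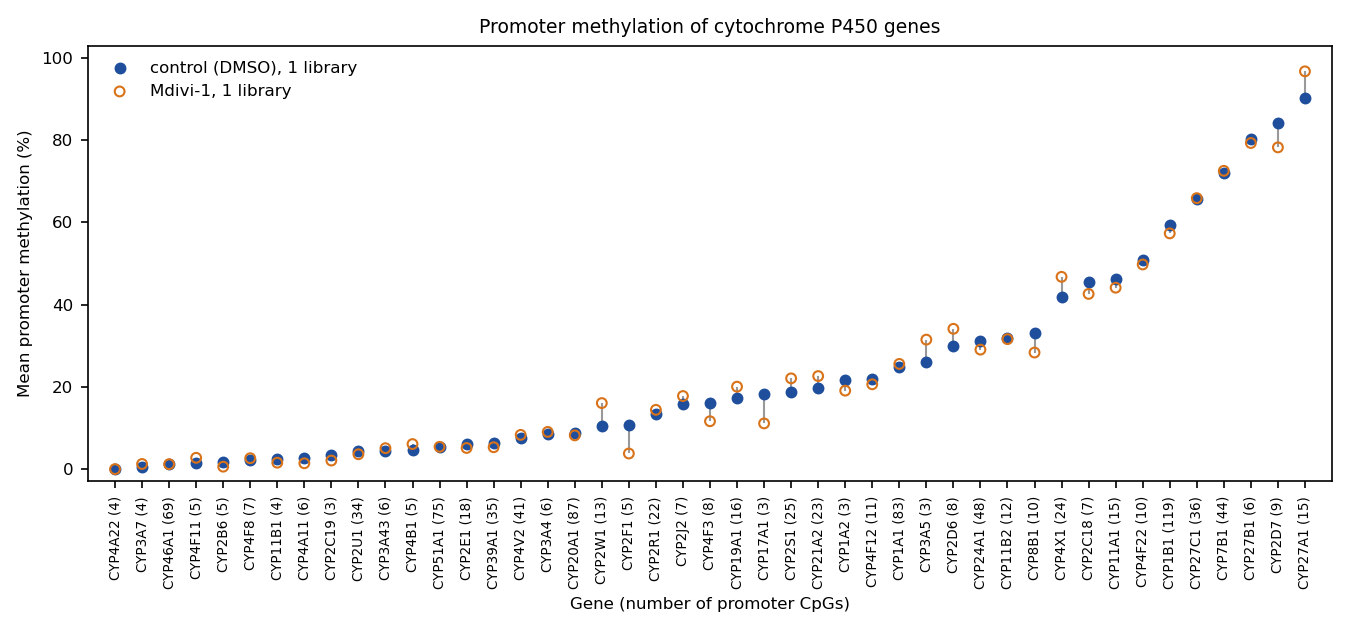
Mean methylation of promoter CpGs (vertical axis, percent) in the control and Mdivi-1 libraries for 45 of the 46 P450 genes with at least 3 promoter CpGs, ordered by control level, with the number of CpGs beside each name. In the control, 18 of the values drawn lie under 10%, and paired values differ by at most 7.17 points.

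The enzymes of fatty acid and eicosanoid metabolism had the lowest promoters, with a median of 4.55% over 11 genes and 7 of them under 10%. CYP4A22, a fatty acid hydroxylase, was listed at 0% in both libraries over 4 CpGs. Its 48 control and 72 Mdivi-1 reads allow levels of up to 6.25% and 4.17%, and reads may span several of these CpGs. CYP4F11, of the same function, was at 1.57% with DMSO (errors 1.09 and 2.25 points) and 2.75% with Mdivi-1 over 5 CpGs. Its relatives CYP4F8 and CYP4A11 were at 2.12% and 2.78%. CYP2U1 and CYP4V2, which also act on fatty acids and have CpG-rich promoters, were at 4.29% over 34 CpGs and 7.54% over 41. CYP4F22, needed for the lipid barrier of the skin, was the highest of the group at 50.9% and 49.8%.

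Promoters of the xenobiotic enzymes had a median of 10.8% over 15 genes, 7 of them under 10%. CYP3A7, the main CYP3A enzyme of fetal liver, was at 0.455% with DMSO (errors 0.450 and 1.33 points) and 1.25% with Mdivi-1 over 4 CpGs. CYP3A4, the major drug-metabolising P450 of adult liver, was at 8.49% and 9.05%, and CYP2B6 at 1.81% and 0.597%. At the other end stood CYP2D7, the gene copy beside CYP2D6, at 84.2% (errors 1.56 and 6.91 points) and 78.2% over 9 CpGs. CYP1B1, which oxidises oestrogens and polycyclic hydrocarbons, was at 59.2% and 57.3% over 119 promoter CpGs, the most of any member, and its 234 other CpGs were at 94.0% and 95.1%. CYP1A1 and CYP1A2, its relatives, were at 24.8% over 83 CpGs and 21.6% over 3 CpGs in the control. The 3 CpGs of CYP1A2 stood at 0%, 61.5% and 3.28%, and the errors of their mean were 4.56 and 7.06 points.

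The promoters of the 6 sterol and bile acid enzymes ran from near 0 to 90.1%, with 3 of them under 10%. CYP46A1, the brain enzyme that turns cholesterol into an exported hydroxysterol, was at 1.25% with DMSO (errors 0.291 and 2.23 points) and 1.20% with Mdivi-1 over 69 CpGs. CYP51A1, which every cell that makes cholesterol uses, was at 5.29% and 5.42% over 75 CpGs, and CYP39A1, which acts on the product of CYP46A1, at 6.29% and 5.32% over 35. By contrast CYP27A1, the mitochondrial sterol hydroxylase, was at 90.1% (errors 2.13 and 8.36 points) and 96.7% over 15 CpGs, 14 of them in a CpG island and covered by 12.7 and 12.6 reads on average. CYP7B1, the oxysterol hydroxylase on chromosome 8, was at 72.0% and 72.5% over 44 CpGs. CYP8B1, which sets the balance of bile acids, lay between at 33.2% and 28.3% over 10 CpGs.

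In the vitamin D and retinoid group CYP2R1, which makes the circulating form of vitamin D, was at 13.4% and 14.4%, and CYP24A1, which degrades the hormone, at 31.1% and 29.1%. CYP27C1, a retinoid desaturase, was at 65.7% (errors 0.930 and 7.38 points) and 65.9% over 36 CpGs. These include 10 CpGs inside the gene, mostly exonic, at 2:127963504-127963654 (hg19), which stood at 92.0% in the control. Near its 5′ end 8 promoter CpGs were at 71.1%, and a stretch of 11 CpGs, 6 of them promoter CpGs, was at 1.90%. CYP27B1, which makes the active hormone, was at 80.3% (errors 1.65 and 7.35 points) and 79.3%, but 4 of its 6 promoter CpGs are annotated to an exon or 3′ untranslated region and stood at 94.7% to 100% in the control, whereas the 2 CpGs annotated as upstream had 6 of 59 and 28 of 35 reads methylated. The steroid hormone group had a median of 19.0%. It ran from CYP11B1, the last enzyme of cortisol synthesis, at 2.45% to CYP11A1, which starts steroid synthesis from cholesterol, at 46.1%. CYP19A1, the aromatase, was at 17.2% and 20.05%, and CYP21A2, which has a near-identical pseudogene, at 19.7% and 22.6%. No member of that group reached 50% or, apart from CYP11B1, was under 10%.

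Of the CpG classes compared, the widest gap in level between the family and all genes was in CpGs outside islands, shores and shelves, the CpG-poor DNA that is usually methylated. No test was made of this gap, which is given as a description. There the 782 P450 CpGs averaged 29.3% in both libraries, against 60.3% and 61.0% over 570687 CpGs of all genes. Of these P450 CpGs 52.3% were under 10% in the control, against 22.9%. Counted by gene, among genes with at least 3 such CpGs, the median was 17.8% over 38 members and 68.8% over 20780 genes. Of the 38 members 14 (36.8%, against 12.0%) were under 10%. CYP2B6 had the lowest mean at 0.645% over 25 CpGs, and CYP4A22 at 1.34%, CYP4F11 at 1.57% and CYP4A11 at 2.01% were also among the lowest. Of the 38 members only CYP2U1 and CYP2R1, at 95.8% and 92.1% over 5 CpGs each, were above 80% (5.26%, against 42.5% of all genes).

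Low levels outside islands were found mostly in the clustered genes, which made up 13 of the 14 members under 10%. The 24 members in tandem clusters or pairs had a median of 8.09% (quartiles 2.43% and 18.5%) and the 14 that stand alone one of 41.9% (33.5% and 64.9%). In the CYP2A/2B/2F/2S cluster on chromosome 19 the 37 such CpGs averaged 2.38%. Of these, 25 were in CYP2B6 (0.645%), 7 in CYP2S1 (2.54%) and 5 in CYP2F1 (10.8%), and CYP2A6 had none. Flanks here are such CpGs of no member from 100 kb before a cluster to 100 kb after it, including any between its genes. The flanks of this cluster averaged 67.0% over 91 CpGs. In the CYP3A cluster on chromosome 7 the values for genes and flanks were 16.1% and 63.5%. Of its genes CYP3A5 was at 51.2% over 12 CpGs, and CYP3A4, CYP3A7 and CYP3A43 were at 6.17%, 5.82% and 5.67%. In the CYP2C cluster on chromosome 10, with 29 flank CpGs, genes and flanks averaged 20.6% and 38.5%. In the CYP1A pair on chromosome 15 they averaged 46.6% and 65.4%. The gap was smaller for the CYP11B pair on chromosome 8, at 18.1% and 26.7%. The CYP4A/4B/4X/4Z cluster on chromosome 1 was at 3.47%, but its flanks were low as well, at 16.7%, and the CYP4F cluster on chromosome 19 was close to its flanks, at 14.3% and 14.7%. By median over CpGs, genes and flanks were at 0% and 86.7% for CYP2A/2B/2F/2S and 2.19% and 88.5% for CYP3A. The medians were 3.03% and 16.7% for CYP2C, 57.0% and 82.4% for CYP1A, and 7.14% and 8% for CYP11B, almost without a gap. For CYP4A/4B/4X/4Z they were 0% and 3.03%, and for CYP4F 3.92% and 2.61%. Over the 30 members left when close paralogs and pseudogene pairs were removed, the mean outside islands was 39.0%. Reads from near-identical copies may be placed on either gene, so the levels of single genes in these sets are uncertain.

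**Figure D2:**
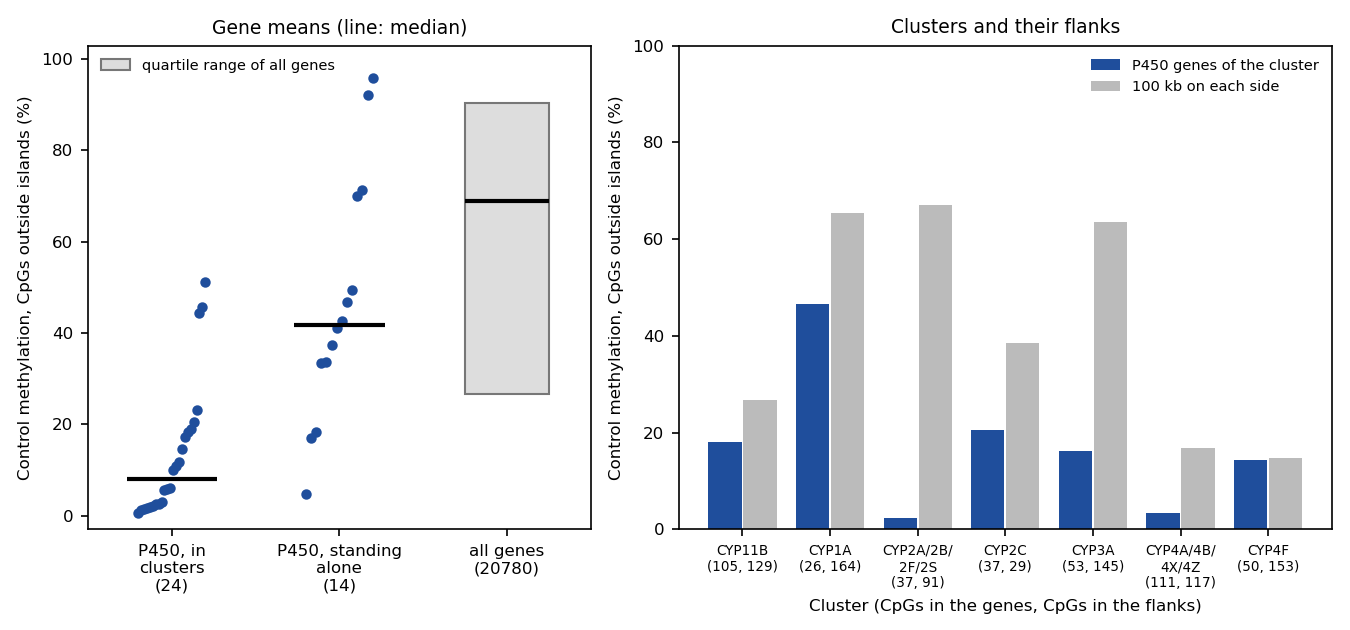
Control methylation (percent) of CpGs outside islands, shores and shelves. Left, gene means of P450 genes in clusters and standing alone, with black lines at the medians and a grey box for the quartiles of all genes. Right, means over CpGs in the P450 genes of each cluster and over its flanks. The flanks are CpGs of no member from 100 kb before to 100 kb after the cluster, including any between its genes. The CYP2D pair had none of these CpGs in its genes. The median of the clustered genes, 8.09%, lies below the lower quartile of all genes.

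Inside CpG islands the means were in the reverse order, and much of that gap came from CYP1B1. The 1469 island CpGs of the family averaged 39.9% with DMSO and 40.4% with Mdivi-1, against 27.7% and 27.9% for all genes, and the 169 CpGs in 5′ untranslated regions 40.5%, against 15.4%. CYP1B1 holds 294 of these island CpGs, at 80.7% in the control. Without it the other 1175 averaged 29.7% and 30.3%, close to all genes, and the 140 left in 5′ untranslated regions 28.8%. Above 90% were 23.1% of the island CpGs with CYP1B1 and 12.4% without it, against 15.1% of all. Counted by gene, so that CYP1B1 weighs as 1, the median island level was 25.7% (quartiles 1.63% and 75.2%) over 24 members and 2.54% (1.21% and 42.2%) over 17500 genes. Among 12 promoters with at least 50% of their CpGs in an island the median was 21.8%, against 8.94% over 9704 genes. The 34 other promoters had a median of 14.5%, against 30.2% over 16384 genes. Under 10% were 5 of the 12 island promoters (CYP46A1, CYP51A1, CYP39A1, CYP4V2 and CYP20A1), and 3 were above 50% (CYP1B1, CYP7B1 and CYP27A1). Across 42 genes with both kinds of CpG, promoter and other CpGs of a gene had control levels with a Pearson r of 0.63 and a Spearman rho of 0.64, given as a description of CpGs read in the same library.

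Several promoter means join a methylated and an unmethylated stretch (the plot of single promoter CpGs in 4 genes). In CYP1B1, on the minus strand, the 23 CpGs at 2:38303505-38303734 (hg19, as are all positions of measured CpGs) averaged 95.9%, those at 38304067-38304250 and 38304293-38304493 were at 28.7% and 19.3%, and the last 4, at 38304786-38304878, were at 93.8%. The methylated part runs on through the gene. In CYP1A1 the 17 CpGs at 15:75018508-75018716 averaged 1.61% and the 16 at 75019013-75019204, farther from the gene, 59.9%. CYP7B1 had 8.83% over 12 CpGs at the gene side and 90.2% over the next 21. In CYP27C1 the 11 CpGs at 2:127977831-127977970 were at 1.90% and the 8 at 127978315-127978491 at 71.1%. CYP2R1 went from 0.988% over 15 CpGs to 86.5% over 2 CpGs within 1 kb. CYP20A1 had 4.16% to 50.3% along its shore and 0.889% to 2.03% in its island. CYP2E1, the ethanol-oxidising enzyme, had a promoter at 6.15% and an intronic island at 40.2% to 78.0%. The steps stood at the same places in both libraries.

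**Figure D3:**
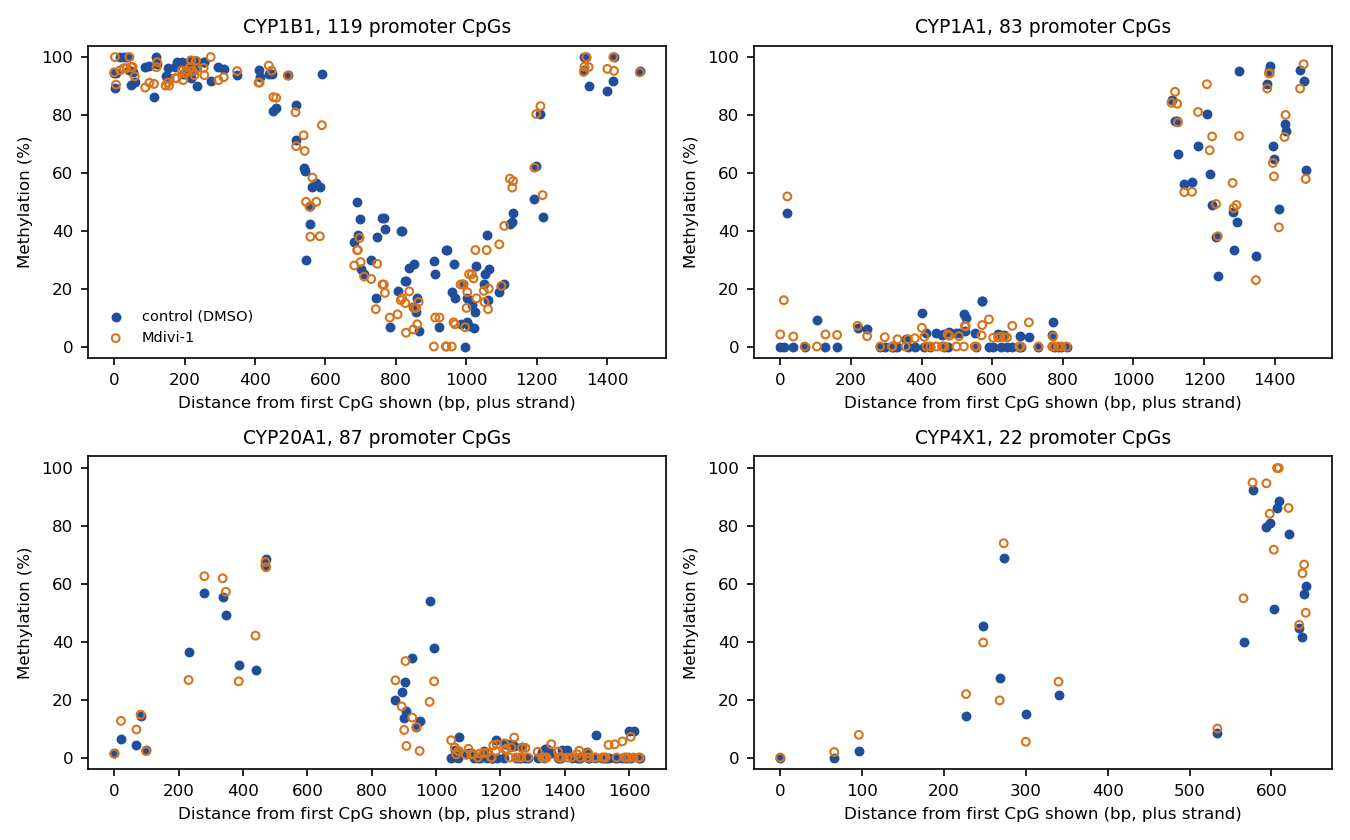
Methylation (percent) of single promoter CpGs against the distance from the first CpG shown (base pairs along the plus strand) in the control and Mdivi-1 libraries for CYP1B1, CYP1A1, CYP20A1 and CYP4X1. CYP1B1 has a valley between methylated sides, and CYP1A1 steps between methylated and unmethylated stretches. CYP20A1 has a shore of low to intermediate levels, up to 50.3% over 6 CpGs in the control, beside an unmethylated island. The libraries follow each other. Of the 24 CYP4X1 promoter CpGs 2 lie far upstream and are left out.

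The comparison of the libraries asked whether exposure to Mdivi-1 went with a change in methylation of these genes. It showed no P450 gene past either of the rules used. Over the 3182 CpGs the mean was 36.0% with DMSO and 36.2% with Mdivi-1, which is 0.250 points higher (error 0.134 for independent CpGs), against 0.458 points over the 2170092 CpGs annotated to genes. Pooling reads in place of averaging CpGs turned the P450 difference to -0.549 points. The median over genes was 0.0373 points, with 26 genes higher and 24 lower, against 0.357 points and 65.4% of genes higher over all genes. The root mean square difference of single P450 CpGs was 7.83 points and that due to counting alone 7.55 points, against 7.25 and 7.01 points for all genes.

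A gene, promoter or 1 kb window was counted as different when at least 5 CpGs differed by 10 points on average and 80% of them in that direction. None of 49 genes met this, against 36 of all 27301 genes (0.132%), and none of 38 promoters, against 69 of 23526 (0.293%). The largest difference of a gene in that count was 7.04 points. By the counting error for independent CpGs, 7 of the 50 genes (14%, against 17.1% of all genes) differed beyond a 95% interval. With fully shared reads none did, against only 3 of all 29046 genes. Counts of 0 among so few genes are close to these background shares.

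**Figure D4:**
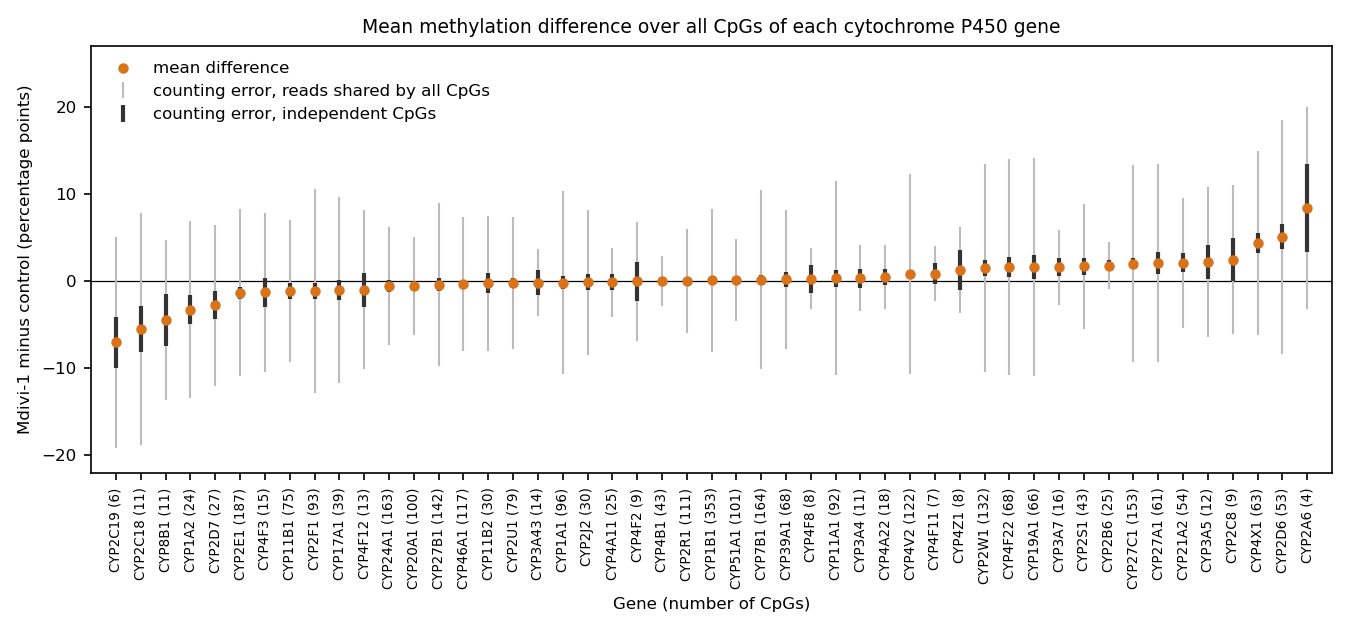
Difference in mean methylation, Mdivi-1 minus control (percentage points), over all CpGs of each of 49 of the 50 P450 genes, with the number of CpGs beside each name. Dark bars are 1 counting error for independent CpGs and pale bars 1 counting error if reads are shared by all CpGs of the gene; all pale bars reach across 0.

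Among genes of at least 5 CpGs, the higher values in the Mdivi-1 library were led by CYP2D6, an enzyme that clears many drugs of the nervous system, at 70.2% with DMSO and 75.3% with Mdivi-1 over 53 CpGs (5.05 points, errors 1.43 and 13.5). It had 35 CpGs higher and 13 lower at a mean of 20.8 and 23.0 reads, and with at least 20 reads the difference was 1.71 points. CYP2D7 beside it differed the other way, from 90.2% to 87.4% (-2.80 points, errors 1.61 and 9.25), and by -6.23 points with pooled reads. CYP4X1, a P450 of the brain with little known substrates, was at 27.1% and 31.4% over 63 CpGs (4.36 points, errors 1.11 and 10.5), with 37 CpGs higher and 20 lower. Its promoter was at 41.9% and 46.8% (4.87 points, errors 1.77 and 10.5), and most of the difference lay in the island at 1:47489256-47489747, where 18 CpGs were at 50.3% and 59.7% and the next 13 at 19.9% and 28.9%. With pooled reads the gene differed by 1.56 points and the promoter by 0.208 points. CYP2C8, CYP3A5 and CYP21A2 were higher by 2.42, 2.17 and 2.08 points, with errors of 2.48, 1.96 and 1.08 points for independent CpGs, and by 0.894, 0.181 and 0.914 points with pooled reads.

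Lower values were led by CYP2C19, a drug-metabolising enzyme, at 20.6% and 13.5% over 6 CpGs (-7.04 points, errors 2.90 and 12.1) at 17.3 and 22 reads, with 3 CpGs lower and the others equal. CYP2C18 was at 44.5% and 39.0% over 11 CpGs (-5.54 points, errors 2.63 and 13.3), and differed by -1.23 points with pooled reads. CYP8B1 was at 33.6% and 29.1% over 11 CpGs (-4.46 points, errors 2.97 and 9.19), almost all of them in its promoter (-4.82 points). CYP1A2, the caffeine-oxidising enzyme, was at 45.7% and 42.4% over 24 CpGs (-3.28 points, errors 1.67 and 10.1). CYP2A6, the nicotine oxidase, had the largest difference of any member, from 8.31% to 16.7%, over 4 CpGs only, of which 1 was higher and 2 lower. That value rests on 1 CpG with 3 of 14 methylated reads in the control and 10 of 15 in the Mdivi-1 library.

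Among promoters of at least 5 CpGs, CYP27A1 was higher by 6.58 points (errors 2.54 and 9.85), with 10 of 15 CpGs higher and 1 lower. The whole gene was higher by 2.04 points and lower by 1.33 points with pooled reads. The CYP2W1 promoter went from 10.5% to 16.1% (5.51 points, errors 2.47 and 8.68), with 11 of 13 CpGs higher. CYP2F1, a lung enzyme, had the lowest value, from 10.8% to 3.80% over 5 CpGs (-7.00 points, errors 3.96 and 7.59), of which 3 were lower, followed by CYP2D7, from 84.2% to 78.2% (-5.94 points, errors 2.46 and 9.61) with 7 of 9 CpGs lower. In each of these promoters the difference exceeded the error for independent CpGs and was below that for shared reads.

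The role groups did not move one way. Over all CpGs, 8 xenobiotic genes were higher and 9 lower (median -0.0171 points), and 5 fatty acid genes were higher and 7 lower (median -0.0366 points). Of the sterol genes 4 were higher and 2 lower, of the steroid hormone genes 3 and 3, and of the vitamin D and retinoid genes 2 and 2. Of the 5 genes of little known substrate, 4 were higher, with a median of 1.47 points and CYP4X1 at the top. The largest difference of the fatty acid group was 1.57 points for CYP4F22 (errors 1.13 and 12.4, and -0.532 points with pooled reads), and that of the vitamin D and retinoid group 1.99 points for CYP27C1 (errors 0.670 and 11.3, and -0.0136 points with pooled reads).

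No single CpG of the family was called by a two-sided Fisher exact test with Benjamini-Hochberg adjustment over all CpGs, at an adjusted p under 0.05 and a difference of at least 20 points. Of all 2523693 CpGs 16 were called (0.000634%). At an unadjusted p under 0.05 there were 50 P450 CpGs (1.57%, against 2.02% of all CpGs). The smallest p was that of a CpG in the CYP20A1 shore at 2:204103399, with 26 of 48 reads methylated in the control (54.2%, 95% Wilson interval 40.3% to 67.4%) and 10 of 52 in the Mdivi-1 library (19.2%, 10.8% to 31.9%). Its p was 0.000364 by the exact test and the adjusted p 1. An exonic CpG of CYP17A1, the enzyme that opens the way to androgens, came next at 10:104595122, with 50 of 58 and 80 of 81 reads. It was followed by an intronic CpG of CYP24A1 at 20:52781269 (0 of 24 and 11 of 40 reads), one of CYP27C1 at 2:127976143 (8 of 37 and 22 of 41) and an exonic CpG of CYP4F22 at 19:15661528 (47 of 99 and 78 of 117). Their adjusted p was 1 as well. A difference of 20 points or more was seen at 113 P450 CpGs (3.55%, against 2.74% of all), 52 of them higher and 61 lower.

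Of 140 windows of 1 kb with at least 5 P450 CpGs, 1 met the rule of size, against 0.953% of 123163 windows. It held 6 CpGs of CYP19A1 at 15:51535383-51535953, in a 5′ untranslated region and intron that the annotation also gives to a noncoding RNA. The level was 15.8% with DMSO and 26.9% with Mdivi-1, which is 11.2 points higher with errors of 3.72 and 9.20, and 5 of 6 CpGs were higher. The share of P450 windows is thus near that of all windows. It was not met with at least 10 CpGs or with a difference of 15 points.

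Genes that serve or control the P450 enzymes were also without a difference past the rule of size. All 23 genes of that list were measured, 17 of them higher and 6 lower in the Mdivi-1 library with a median of 0.604 points, and their 22 promoters were split into 11 and 11. The promoter of POR, the reductase, was at 1.83% and 2.07%, and that of CYB5A, an electron carrier that helps some P450 reactions, at 4.13% and 3.18%. The promoter of AHR was at 50.6% and 46.5% over 8 CpGs, and that of its repressor AHRR was at 89.0% and 92.2%. NR1I2, the xenobiotic receptor that induces CYP3A4, was at 79.0% and 78.9%, and VDR, the vitamin D receptor, at 49.8% and 52.6%. Promoters of the sympathetic neuroblastoma markers stood between 0.802% and 53.7% in the control, 5 of 8 under 10%, among them HAND2 at 1.16% and DBH, the enzyme that makes noradrenaline, at 1.23%. Of the 4 hepatocyte and 4 mesenchymal neuroblastoma markers 1 and 0 promoters were under 10%, with ALB at 8.60%.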

How the data were processed

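Genomic DNA of 1 control and 1 Mdivi-1 library was captured with the SureSelectXT Methyl-Seq kit, converted with bisulfite and sequenced on a NovaSeq instrument, per the labels' protocols. The submitters' processing notes give hg19 and, unversioned, BSMAP. RNA-seq was not analysed here. The authors deposited for each position a methylated fraction and a coverage, the coverage being treated as an expected count because a few values are not whole. Mdivi-1 fractions were whole reads at the deposited coverage. Control fractions were so at 33.3% of positions (tolerance 1e-06) and at 100% after scaling coverage by 1.23 (median coverages 37 over 30 reads), a step inferred from the values and not given in the sources used here. Whole control reads were recovered by inverting that step, and 10795 positions (0.389%), 14 of them in P450 genes, were left out.

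CpGs needed 10 reads in both libraries, and 261 P450 positions had fewer. Levels are means over CpGs, and differences are Mdivi-1 minus control. The Fisher exact test (two-sided) was run on each CpG and adjusted after Benjamini and Hochberg over all CpGs. A CpG counted for a gene through the deposited promoter or gene column, and 440 of the P450 CpGs also name another gene. Counting errors use binomial variances. Full values are given for the 5 largest gains and losses over all CpGs, the 3 in promoters, the 5 highest and lowest promoters, the largest difference in each role group, the 5 CpGs of smallest p, and CYP2A6 under the role rule; other members are named with their levels. A gene that this rule names is not reported here. Sequences were chosen among these genes. Alternatives were other coverage minimums, pooled reads, deposited fractions, CpGs of members only, removal of close paralogs, other thresholds and, added after seeing the data, removal of positions next to another and of CYP1B1. The map of gene clusters and the window, island and outside-island results were also made after seeing the data. Members and lists were chosen with earlier results of these data known. FDX1L in the pathway list is an older name of FDX2. Scripts were tested on simulated data. Software was SciPy 1.17.1, pandas 2.3.3, Matplotlib 3.10.9, NumPy 2.4.6 and Numba 0.67.0 under Python 3.11.15.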

Additional observations from a re-analysis of the deposited data

How the results depend on the processing

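No paired analysis was possible because each group held 1 library, and for the same reason no library could be left out. The count of called P450 CpGs was 0 under each alternative run, and that of genes and promoters past the rule of size was 0 apart from 1, the CYP2W1 promoter, at 5 points. The mean difference over CpGs was 0.159 to 0.314 points except with pooled reads (-0.549), and the median over genes lay between -0.0171 and 0.379 points. The median promoter level of 15.9% was 13.8%, 18.1% and 17.1% with minimums of 5, 20 and 30 reads, 18.3% for CpGs annotated to members only, 17.2% without close paralogs, 13.0% with pooled reads, and 16.6% both for promoters with at least 5 CpGs and without positions next to another. The level outside islands of 29.3% was 30.3% with 20 reads, with 30 reads and without positions next to another, 28.3% for CpGs of members only and 39.0% without close paralogs. The level inside islands of 39.9% was 29.7% without CYP1B1, 38.3%, 41.3% and 45.3% with minimums of 5, 20 and 30 reads, 46.1% for CpGs of members only, 38.4% without close paralogs and 40.9% with pooled reads. The 1 window past the rule became 3 with 5 reads, 10 at 5 points, and 0 at 15 points, with at least 10 CpGs, or when CpGs that also name another gene were left out. Shares of all genes, promoters and windows were computed for the main rule only. The counts under changed rules therefore have no background and show nothing particular to the family. Pooled reads turned the direction of 13 of 50 genes and 10 of 46 promoters, 20 reads that of 5 of 48 and 2 of 38, and deposited fractions that of 1 of 50 and 0 of 46; the cause was not tested. At 40.0 and 47.8 reads a CpG, 7 of the 50 genes differed beyond a 95% interval for independent CpGs (14%, against 17.1% of all). None of the 50 differed beyond that for fully shared reads, against only 3 of all 29046 genes.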
